A study of Mus musculus with 2 samples.

Results

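Endothelial cells were picked out of 2 mouse liver sections by the transcripts they carried, and 691 of 111966 segmented cells met the rule. A cell was kept if its volume reached 50 cubic µm and its gene counts reached 10, and it was selected on a sum of at least 3 raw counts of Kdr, Tek, Lyve1, Oit3, Cdh5, Clec14a and Ushbp1. Of 25499 kept cells, 559 of 9209 were selected in section 1 (6.07%, exact binomial 95% interval 5.59 to 6.58) and 132 of 16290 in section 2 (0.810%, 0.678 to 0.960). These intervals, and the Poisson intervals on counts below, cover counting error only. The other 24808 kept cells served as the comparison. Transcripts of 500 genes were imaged by MERFISH, which reads barcoded RNA molecules in place, together with 50 blank barcodes that name no gene.

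Both sections are 10 µm cuts of snap-frozen liver and form 1 group in the labels, numbered as replicates 1 and 2 under the tag 2d, whose meaning was not worked out. The design text of the series speaks of treated mice carrying liver metastases, but no label links a section to a treatment, and none was assigned. The labels used here give no strain, age or genotype, and do not say whether the sections are of separate animals. No comparison between groups could be made, so all results set these endothelial cells against their neighbours or against each other within a section.

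Liver sinusoids are capillaries lined by endothelial cells with open pores and no continuous basement membrane, so plasma reaches the hepatocytes directly. Their endothelial cells clear waste from blood through scavenger and mannose receptors, make coagulation factor VIII, and release Wnt and BMP ligands that act on the hepatocytes beside them. Blood runs along them from the portal tract to the central vein, and endothelial genes differ along this axis as hepatocyte genes do. Endothelial cells of veins and arteries share the general endothelial genes of the rule.

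The sections differed in depth and in how much endothelial signal the kept cells held. The median selected cell held 54 gene counts in section 1 and 20 in section 2, against 26 and 15 in the other kept cells. Without the rule genes, whose counts the selection itself raises, the medians were 47 against 26 and 16 against 15. With every kept cell reduced to 10 counts, the expected share of cells with at least 3 rule counts was 1.24% in section 1 and 0.243% in section 2, and the share with at least 1 was 10.2% and 6.37%. Among cells with 20 to 49 counts outside the rule, 183 of 3567 were selected in section 1 (5.13%, 4.43 to 5.91) and 42 of 4582 in section 2 (0.917%, 0.661 to 1.24). No cell identifier was shared between the sections.

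The 7 rule genes contributed unequally. The receptor genes Kdr (a VEGF receptor), Tek (the angiopoietin receptor) and Lyve1 (a hyaluronan receptor) gave 10.1%, 4.64% and 6.60% of the rule counts in selected cells of section 1, and 8.09%, 3.83% and 7.02% in section 2. Cdh5, the cadherin of endothelial junctions, gave 11.1% and 9.79%, Clec14a, an endothelial lectin, 6.75% and 7.87%, and Oit3, a gene typical of sinusoidal endothelium, 20.4% and 16.8%. Ushbp1 gave the most, 40.5% in section 1 and 46.6% in section 2, and 66 and 15 cells were selected on Ushbp1 counts alone. At least 3 different rule genes were present in 353 of the 559 cells (63.1%) and in 66 of the 132 (50%). Oit3 was detected in 58.9% and 46.2% of the cells and Lyve1 in 28.4% and 20.5%. The rule does not separate sinusoids from other vessels, and the cells are called endothelial cells here.

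Most selected cells of section 2 sat at the threshold. The sum of rule counts was exactly 3 in 115 cells of section 1 and 88 of section 2, the median sum was 5 and 3, and the highest was 42 and 8. Just outside the rule were 248 and 250 kept cells with a sum of 2. The kept cells held 5615 rule counts in section 1, of which the selected cells held 4029 (71.8%). In section 2 they held 470 of 2175 (21.6%), so most rule-gene counts of section 2 lay in cells the rule left out. A further 42 and 25 cells had a sum of at least 3 but missed the limits on counts or volume.

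**Figure D1:**
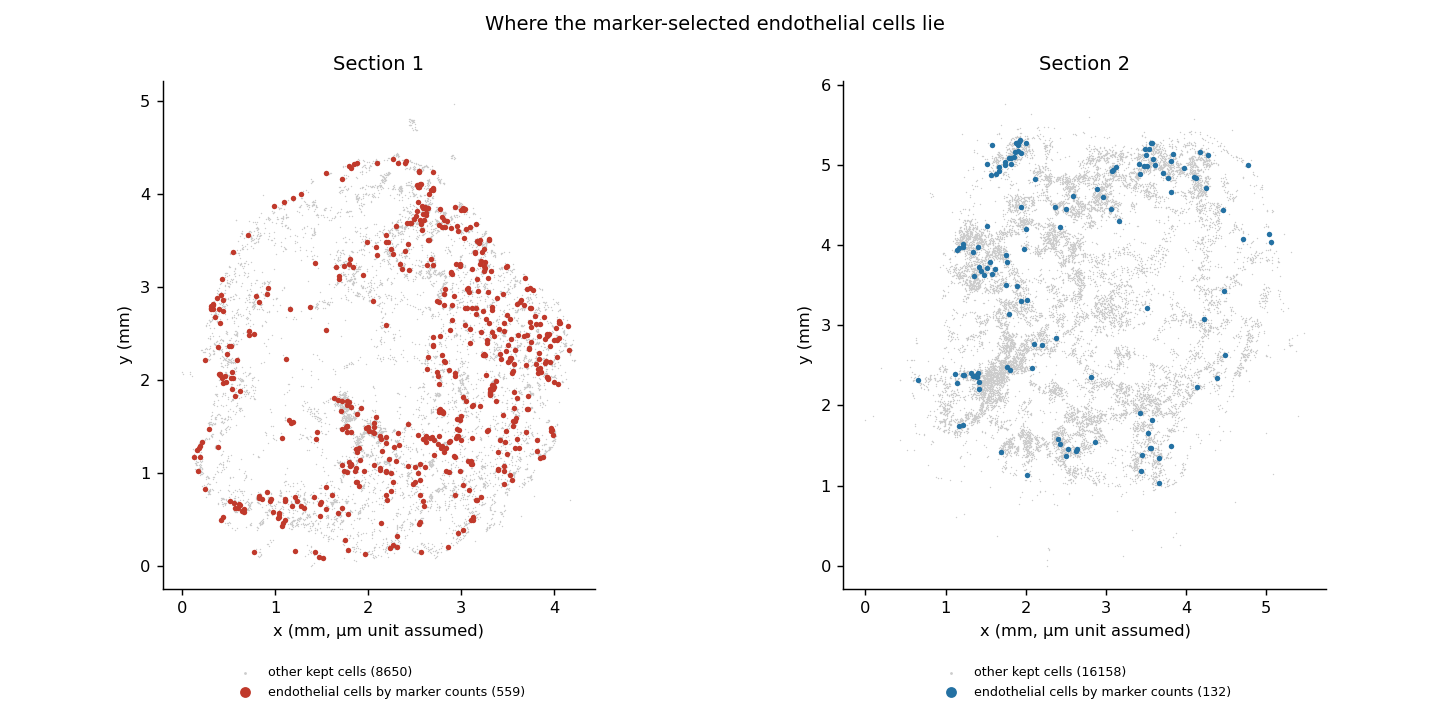
Positions of the kept cells in each section, in mm from the lowest kept coordinate (the unit of length is assumed). Coloured points are the 559 and 132 endothelial cells and grey points the 8650 and 16158 other kept cells. Selected cells are spread over the covered tissue of section 1 and are sparser in section 2.

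Of 418 genes outside the rule that could be tested, 18 were higher in the endothelial cells and 0 were lower. The test was edgeR's quasi-likelihood test on counts summed per section and cell group, with section as a block, trimmed-mean (TMM) scaling, a minimum of 50 counts and a Benjamini-Hochberg adjusted p under 0.05. The 18 are 4.31% of the genes tested, and the genes lower are 0%; 45 genes had an unadjusted p under 0.05 and DESeq2 called 21 higher and 0 lower. Called genes were led by Pcdh12, F8, Mmrn2 and Mrc1, and included the signals Bmp2, Wnt2 and C1qtnf1 and the receptors Notch1, Notch4, Kit and Il6st. The fit rests on 4 sums with 1 residual degree of freedom, so its p-values reflect counting error and disagreement between these sections, not spread between animals. The split depended on the scaling: without TMM factors 44 genes were higher and 14 lower, and with DESeq2-type size factors in edgeR 33 and 33. The median log2 difference over all genes tested was -0.26 with TMM, -0.17 without and -0.39 with those size factors. All 18 called genes were also called higher under both of these scalings.

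The levels below are counts per 10000 counts of genes outside the rule, summed over the cells of a section. These levels and their ratios carry no TMM scaling, while the fitted log2 differences do, so the ratios and the fitted values are not on the same scale. The largest differences were those of Pcdh12, F8 and Mmrn2. Pcdh12, a protocadherin of endothelial cells, stood at 20.2 (Poisson 95% interval 15.9 to 25.3) in endothelial cells of section 1 and 41.4 (21.4 to 72.3) in section 2. In other kept cells it stood at 0.721 and 0.916. Endothelial cells were therefore 28.1-fold and 45.2-fold above the others, and the fitted log2 difference was 4.81 (SE 0.63, edgeR adjusted p = 8.0e-11). F8, the gene of coagulation factor VIII, was at 18.4 (14.3 to 23.2) against 1.21 in section 1, and at 6.89 (0.835 to 24.9) against 0.271 in section 2, the latter from 2 counts. Its log2 difference was 3.99 (SE 0.65, edgeR adjusted p = 4.1e-07). Mmrn2, an endothelial matrix glycoprotein, was at 15.7 and 13.8 in endothelial cells and at 1.04 and 1.26 in the others, a log2 difference of 3.60 (SE 0.61). In each of these genes both sections pointed the same way, and the intervals of endothelial and other cells did not overlap.

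Genes linked to larger or activated vessels were called as well. Vwf, which encodes von Willebrand factor, stood at 3.73 (2.04 to 6.25) against 0.922 in section 1 and at 20.7 (7.59 to 45.0) against 1.70 in section 2. Its log2 difference was 2.34 (SE 0.60), and its counts in endothelial cells were 14 and 6. Selp, the gene of P-selectin, which platelets also carry, was at 18.1 against 2.36 in section 1 and at 6.89 against 1.05 in section 2, with a log2 difference of 2.80 (SE 0.64). The section 2 value of Selp rests on 2 counts, and the interval of its 6.55-fold ratio there, 0.760 to 25.8, includes no difference.

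Mrc1, the mannose receptor through which sinusoidal endothelium takes up glycoproteins, was called. Over all genes tested 18 of 418 (4.31%) were called higher, and of 5 endocytosis genes tested Mrc1 alone was. It was found in 159 endothelial cells of section 1 (28.4%) and 10 of section 2 (7.58%), against 1.69% and 0.477% of the other cells. Its level was 71.3 (63.0 to 80.4) against 4.87 in section 1 and 34.5 (16.5 to 63.4) against 2.65 in section 2, a log2 difference of 3.55 (SE 0.63, edgeR adjusted p = 3.8e-06). Macrophages express Mrc1 too. In the 430 and 118 endothelial cells without any count of the 8 macrophage genes measured, Mrc1 stood at 76.2 and 32.8. A count of 0 for these genes was also the usual value in other kept cells (86.4% and 92.1% of them), and the part of macrophage transcripts in Mrc1 was not tested. The 430 and 118 cells had levels above the other kept cells, beyond the counting interval, for 18 of the 18 called genes in section 1 and 14 of 18 in section 2. They are most of the cells in which these genes were called, so this is not separate support for the calls.

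The ligands that endothelial cells send to hepatocytes were represented by Bmp2 and Wnt2. Bmp2, which drives hepcidin in hepatocytes, stood at 41.5 (35.3 to 48.6) against 3.69 in section 1 and at 55.2 (31.5 to 89.6) against 4.65 in section 2. Its ratios of 11.3 and 11.9 were close to each other, and the log2 difference was 3.23 (SE 0.60). Wnt2, a Wnt ligand of sinusoidal and central vein endothelium, stood at 19.96 (Poisson 95% lower bound 15.7) against 3.26 and at 27.6 (11.9 to 54.3) against 3.16, a log2 difference of 2.57 (SE 0.60). C1qtnf1, a secreted protein of the C1q and TNF family, stood at 68.9 against 6.86 in section 1 and at 99.97 against 8.41 in section 2, a log2 difference of 3.13 (SE 0.59). Of 10 angiocrine genes tested, Bmp2 and Wnt2 were higher and 0 were lower, against 18 of 418 higher (4.31%) over all genes. The list median was 0.26 against -0.26 over all genes. Hgf and Cxcl12, which mesenchymal cells also make, had log2 differences of 0.41 (SE 0.61) and -0.37 (SE 0.59) and did not pass.

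Notch receptors were among the called signalling genes. Notch1 was detected in 50.4% of endothelial cells of section 1, more than any other called gene there, and in 19.7% of section 2, against 8.47% and 2.43% of the others. It stood at 147 (135 to 160) against 27.5 and at 103 (69.8 to 148) against 14.0, a log2 difference of 2.32 (SE 0.60). Notch4, whose expression is largely endothelial, stood at 57.8 (50.3 to 66.0) against 4.90 and at 44.8 (23.9 to 76.6) against 4.51, a log2 difference of 3.18 (SE 0.61). Of 5 Notch pathway genes tested, these receptors passed, against 18 of 418 (4.31%) over all genes. The ligand genes Dll1 and Jag1 had log2 differences of 1.35 (SE 0.58) and 1.20 (SE 0.52) with edgeR adjusted p = 0.28 each. Sox9, the last of the 5, went the other way at -1.38 (SE 0.75) and did not pass. Of 10 Wnt pathway genes, Wnt2 alone passed, and the Wnt co-receptor gene Lrp5 was at 1.39 (SE 0.60, edgeR adjusted p = 0.28).

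Cytokine receptors, regulators of the cytoskeleton and transcription factors completed the list. Kit, the stem cell factor receptor that is also found on central vein side endothelium, stood at 23.2 against 4.78 in section 1 and at 10.3 against 1.80 in section 2, from 3 counts. Il6st, the shared signalling chain of the interleukin 6 receptors, stood at 57.5 against 12.5 and at 44.8 against 10.0. Rhoj, a small GTPase of endothelial cells, was at 7.45 against 1.41 and at 17.2 against 2.85. Their log2 differences were 2.20 (SE 0.64), 1.91 (SE 0.58) and 2.27 (SE 0.57).

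Klf2, a transcription factor induced by flow, stood at 12.2 against 2.85 in section 1 and at 13.8 against 2.85 in section 2. Hoxb4, a homeobox factor, stood at 25.02 against 3.20 and at 20.7 against 1.93. Dusp1, a phosphatase of MAP kinases that stress induces, differed more between sections, at 18.1 against 7.18 in section 1 and 55.2 (31.5 to 89.6) against 4.44 in section 2. The log2 differences were 1.99 (SE 0.59), 2.91 (SE 0.63) and 2.05 (SE 0.58). Gimap4, an immunity-associated GTPase, was called at 2.54 (SE 0.72), but its 16 counts all came from section 1, and section 2 held 0 counts, which allows a level of up to 12.7.

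**Figure D2:**
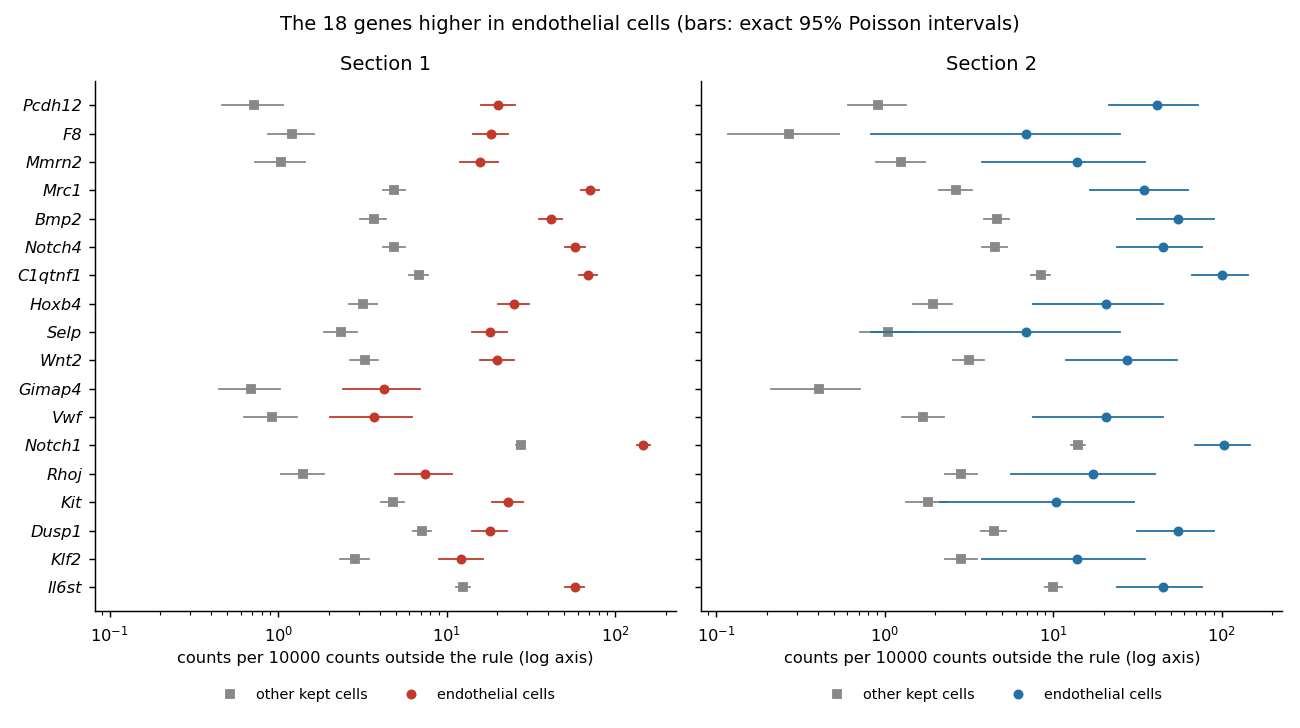
Levels of the 18 called genes in endothelial cells (circles) and other kept cells (squares), per section, as counts per 10000 counts of genes outside the rule on a log axis; bars are exact Poisson intervals, and a level of 0 is not drawn. In section 1 every circle lies to the right of its square, from 2.52-fold for Dusp1 to 28.1-fold for Pcdh12, and in section 2 the bars are wider and Gimap4 has no circle.

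Ratios were above 1 in both sections for 17 of the 18 called genes, Gimap4 being the exception. Counting intervals of the ratio lay above 1 for 18 genes in section 1 and 16 in section 2. In endothelial cells, the highest blank barcode held 33 counts in section 1 and 4 in section 2, and 10 of the 18 genes exceeded it in both sections. Vwf, Rhoj and Gimap4 did not exceed it in section 1, nor did F8, Mmrn2, Selp, Kit, Klf2 and Gimap4 in section 2. The mean blank held 3.24 and 0.260 counts. With a minimum of 5 rule counts, which left 20 cells in section 2, the edgeR test called 1 gene, Gimap4, and 17 of the 18 kept their direction without passing. Without section as a block 8 genes were higher and 1 lower, and among cells with 20 to 49 counts outside the rule 10 were higher.

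Counted by list, the endothelial genes outside the rule were few on this panel. Over all genes tested, 18 of 418 (4.31%) were called higher, and the median log2 difference was -0.26. Of 50 further endothelial genes listed, 6 were measured and 5 could be tested: Mrc1, Mmrn2 and F8 passed, while Vcam1 and S1pr1, at -0.02 (SE 0.60) and 0.43 (SE 0.63), did not. Procr was too sparse, with 2 and 0 counts. The median of the 5 was 3.55. Per section it was 3.87 and 3.46, taken from ratios of levels without TMM scaling. Of genes known from the central side of the endothelium, 3 of 3 measured passed (Wnt2, Kit and Selp), with a median of 2.57. Of those known from the portal side or from larger vessels, Vwf passed, and Il1a and Jag1, at 1.44 (SE 0.60) and 1.20 (SE 0.52), did not, with a median of 1.44. Thy1, the lymphatic gene measured, was at -0.44 (SE 0.78).

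Genes of other cell types were present in the endothelial cells, and none of their lists had a called gene other than those shared with endothelium. The 22 hepatocyte genes summed to 2635 (2583 to 2687) per 10000 in endothelial cells against 3110 in others in section 1, and to 3378 (3170 to 3596) against 4700 in section 2. Hp, the haptoglobin gene, stood at 680.3 against 826 in section 1 and at 1165 against 1637 in section 2. F2, Fgb and Igfbp2 were likewise at 0.869, 0.776 and 0.910 of the level in others in section 1, and at 0.777, 0.743 and 0.645 in section 2. At least 3 hepatocyte counts were found in 80.7% and 79.5% of endothelial cells, against 79.6% and 90.6% of the others. The list's median log2 difference was -0.66, with 0 of 22 genes called.

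The 8 macrophage genes summed to 103 against 68.1 in section 1 and to 68.9 against 58.0 in section 2. Csf1r, the macrophage colony factor receptor, stood at 59.3 against 35.9 and at 34.5 against 28.9, while Clec4f, which defines Kupffer cells, was at 10.9 against 10.4 and at 0 counts against 11.5. Adgre1 had 48 and 4 counts. The macrophage sum was 0 in 76.9% and 89.4% of endothelial cells, against 86.4% and 92.1% of the others.

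The 6 mesenchymal genes summed to 214 against 189.7 in section 1 and to 299.9 against 152 in section 2. Col1a1 stood at 149.6 against 151 in section 1 and at 231 against 116 in section 2, Col3a1 at 30.6 against 14.0 and at 44.8 against 13.9, and Cald1 at 19.2 against 16.2 and at 17.2 against 16.9. Pdgfra, a mesenchymal receptor gene, stood at 4.79 (2.84 to 7.57) against 1.93 in section 1 and had 0 counts against 1.09 in section 2, with a log2 difference of 1.27 (SE 0.57, edgeR adjusted p = 0.30). Hgf stood at 7.98 against 5.10 in section 1 and also had 0 counts in section 2. No mesenchymal gene was called, and the list median was 0.66.

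Erythroid, neutrophil and monocyte, lymphocyte and bile duct genes summed to less than elsewhere in section 1, and to levels whose counting interval took in that of the other cells in section 2. Erythroid genes summed to 245 against 366 in section 1 and to 131 against 161 in section 2, led by Klf1 and E2f2. Neutrophil and monocyte genes stood at 64.7 against 96.0 and at 44.8 against 43.5, led by Ncf1 and Csf3r. Lymphocyte genes stood at 25.3 against 51.0 and at 24.1 against 20.2, and bile duct genes at 18.9 against 33.5 and at 17.2 against 19.2. The megakaryocyte and stem cell list summed to more, at 41.8 (35.5 to 48.9) against 32.9 in section 1 and 44.8 (23.9 to 76.6) against 18.6 in section 2. Of this list Vwf and Kit, which endothelium also expresses, were called, and the platelet gene Gp1bb, at -1.69 (SE 0.74), was not. The list's median log2 difference was -1.27, against -0.26 over all genes, with 4 of 10 genes tested above 0. The most counted gene of the list in endothelial cells was Kit in section 1 and Vwf in section 2. The part of foreign transcripts, or of cells segmented together, in any of these values was not tested, and no doublet caller was run.

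The deposited positions of single transcripts showed where within the cells these counts lay. In endothelial cells, 66.1% (64.6 to 67.6) of rule-gene transcripts in section 1 and 64.0% (59.5 to 68.4) in section 2 lay within 5 µm of the cell centre. For the 10 called genes Pcdh12, F8, Mmrn2, Mrc1, Bmp2, Notch4, C1qtnf1, Hoxb4, Selp and Wnt2, which were picked as the leading calls after their values were seen, the share was 65.2% and 70.6%. Hepatocyte transcripts in the same cells lay farther out, with 40.5% (39.5 to 41.4) and 37.3% (34.3 to 40.5) within 5 µm. In the other kept cells the hepatocyte share was 60.4% and 52.6%, the rule-gene share 63.3% and 58.2%, and the leading-gene share 64.5% and 57.1%. The radius was the same for all outlines, while the selected ones had the larger median volume. It was 1538 against 1106 cubic µm in section 1 and 1483 against 1260 in section 2. The part of outline size in these shares was not tested. When counts were limited to transcripts within 5 µm of the centre, 17 genes were higher in endothelial cells and 0 lower, and 16 of the 17 called genes that could still be tested were among them.

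**Figure D3:**
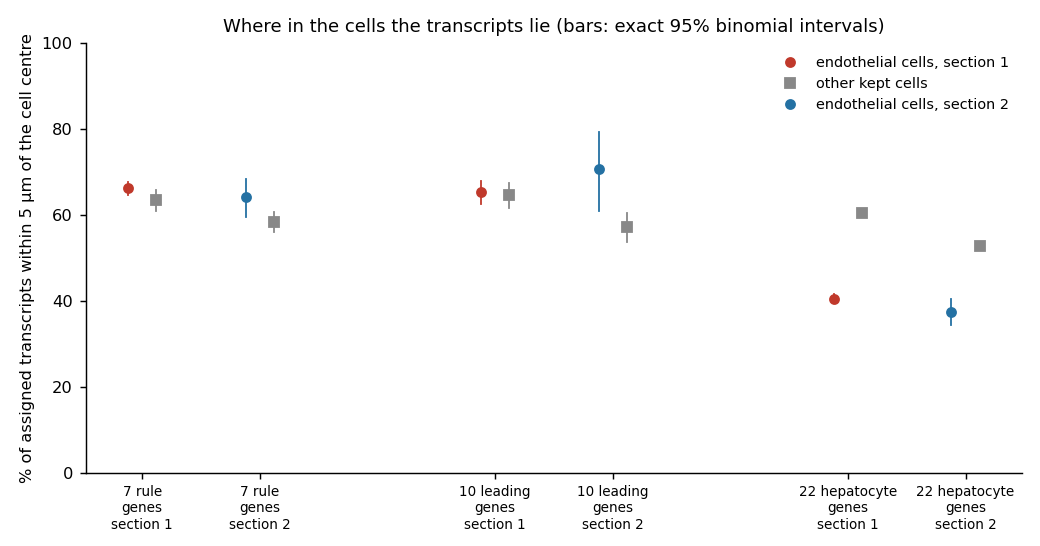
Percentage of assigned transcripts that lay within 5 µm of the cell centre, for 7 rule genes, 10 leading called genes and 22 hepatocyte genes, in endothelial cells (circles) and other kept cells (squares) of each section, with exact binomial intervals. Within endothelial cells the rule genes lie at 66.1% and 64.0%, the leading genes at 65.2% and 70.6%, and the hepatocyte genes at 40.5% and 37.3%.

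The selected outlines were larger than the others by median volume. The rule asks for a sum of raw counts, which a larger outline can reach more easily, and the part of selection in this difference was not tested. The median volume was 1538 cubic µm against 1106 in section 1 and 1483 against 1260 in section 2. The median Ttr stain per volume (transthyretin, a hepatocyte product) was 0.690 of that in the others in section 1 and 0.972 in section 2. DAPI per volume was 0.935 and 1.09 of the others, and the stain named Cellbound3 was at 0.846 and 0.872, below the others in both sections.

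The level of the 10 leading genes, which were picked for being higher in cells above the threshold, is described here by the number of rule counts in a cell. In section 1 it was 25.8 with 0 rule counts, 49.8 with 1, 87.6 (73.2 to 104) with 2, 165 (131 to 205) with 3, 236 with 4, 347 with 5 to 9 and 503 (464 to 545) with 10 or more. In section 2 it was 22.6, 71.9, 159 (126 to 199), 288 (213 to 381), 333 and 562 (385 to 794) in the same order, up to 5 to 9. The 6 further endothelial genes measured, which share F8, Mmrn2 and Mrc1 with the leading genes, showed no such steady order in section 1, at 49.9, 58.1, 72.7, 151, 95.6, 131 and 219 from 0 to 10 or more rule counts, and in section 2 stood at 22.2, 32.5, 42.4, 52.9, 95.1 and 123. In the cells selected on Ushbp1 alone the level of the 10 leading genes was 263 (192 to 350) in section 1 and 449 (232 to 785) in section 2. The 6 further endothelial genes stood at 154 (102 to 224) and, from 4 counts, at 150 (40.8 to 384) in those cells. With those cells left out, 38 genes were higher and 27 lower, and all 18 calls were among the higher ones.

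**Figure D4:**
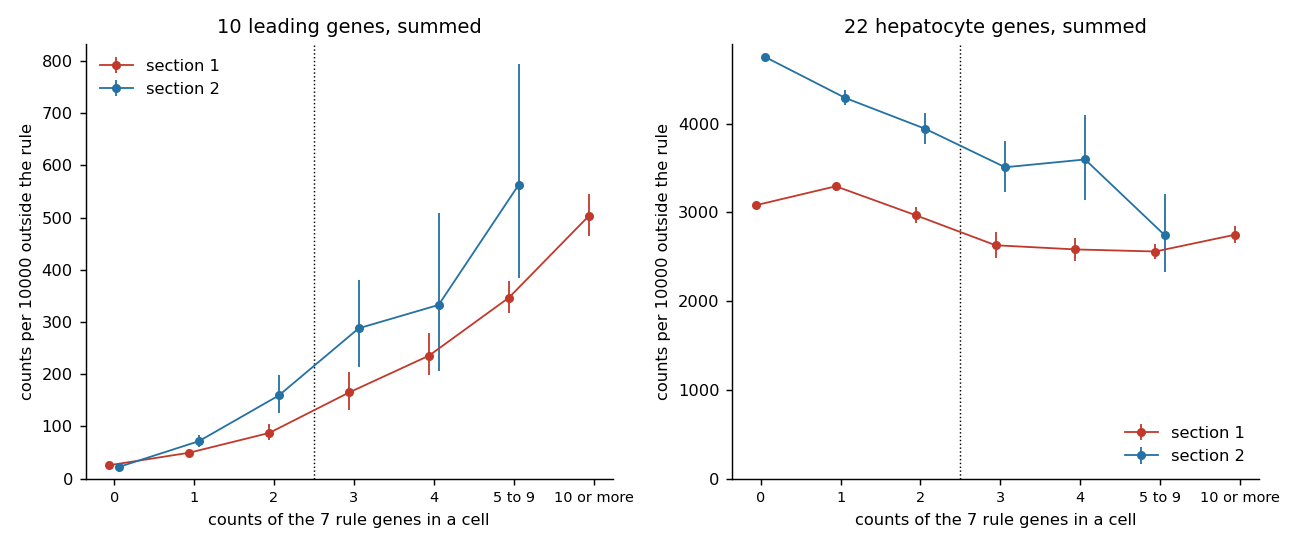
Summed level of the 10 leading genes (left) and of 22 hepatocyte genes (right), per 10000 counts outside the rule, in kept cells ordered by their counts of the 7 rule genes; bars are exact Poisson intervals and the dotted line marks the threshold. The leading genes run from 25.8 to 503 in section 1 and from 22.6 to 562 in section 2, and the hepatocyte genes run from 3082 to 2750 and from 4750 to 2742.

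Many transcripts of the rule genes lay outside the selected cells. Of 9459 rule-gene transcripts in section 1, 42.6% lay in selected cells, 16.8% in other kept cells, 8.83% in cells below the limits and 31.8% in no cell. Of 5262 in section 2, the shares were 8.93%, 32.4%, 34.9% and 23.8%. For transcripts of all genes, the shares in no cell were higher, at 40.1% in section 1 and 34.4% in section 2. The all-gene shares in cells below the limits were lower, at 5.35% and 24.2%. Wnt2 was the leading gene with the lowest share in selected cells of section 1, 14.7%, and 50.3% of its transcripts there were in no cell. Among the rule genes Tek had the highest share in selected cells there, 60.1%. Unassigned rule-gene transcripts lay more densely around endothelial cells: within 15 µm of the centre there were 1.04 per endothelial cell against 0.425 per other cell in section 1, and 0.326 against 0.0981 in section 2. For transcripts of all genes the corresponding values were 53.3 against 47.0 and 27.1 against 20.5.

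Position along the lobule was scored for each cell from its neighbours. The score is the log2 ratio of pericentral landmark counts (Glul, Cyp2e1, Gulo) to periportal ones (Pck1, Ass1, Hsd17b13) in kept cells within 50 µm that are not endothelial, and needs at least 5 of them. Endothelial cells made up 4.80% (3.99 to 5.72) of kept cells in the periportal-side bin of section 1, 6.02% in the middle bin and 7.36% (6.36 to 8.47) in the pericentral-side bin, the cells with a score being cut into 3 equal bins. In section 2 the shares were 0.670% (0.462 to 0.940), 0.995% and 0.812% (0.581 to 1.10), and their intervals overlapped. The log2 ratio of pericentral to periportal side was 0.62 and 0.28, or 0.45 ± 0.24 (SD, n = 2). The sign in section 2 turned with the score: it was -0.13 with pericentral landmarks alone and -0.21 with 5 bins. In section 1 it stayed between 0.34 and 0.79 over the same alternatives and over radii of 30 and 100 µm. From periportal to pericentral side, the median other kept cell had 30, 28 and 25 counts outside the rule in section 1 and 16, 16 and 15 in section 2; the part of depth in these shares was not tested.

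Within endothelial cells, the edgeR test of the pericentral-side against the periportal-side bin called 1 gene higher, Selp, and 1 lower, Cyp2f2, of 209 tested (0.478% each). An unadjusted p under 0.05 was reached by 15 genes, and DESeq2 called 0, with 1 at an unadjusted p under 0.05. Selp stood at 4.80 (1.31 to 12.3), 15.1 (8.04 to 25.8) and 28.5 (19.98 to 39.5) in section 1 from periportal to pericentral side, from 4, 13 and 36 counts. In section 2 it had 1, 0 and 1 counts, so the order came from section 1. Its log2 difference was 2.29 (SE 0.64, edgeR adjusted p = 0.037). Other kept cells had Selp at 1.48, 1.57 and 3.20 in section 1 and at 0.428, 0.549 and 2.29 in section 2. The call was lost with a radius of 100 µm, a rule minimum of 2, no filter on counts, no block or DESeq2.

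Cyp2f2, a cytochrome gene of periportal hepatocytes, stood at 34.8 (23.3 to 49.99), 20.9 and 0.792 (0.0201 to 4.41) in endothelial cells of section 1 and at 18.6, 10.5 and 0 counts in section 2. In other kept cells it stood at 40.8, 22.4 and 11.5 in section 1 and at 30.5, 11.6 and 2.98 in section 2, in the same order. The log2 difference in endothelial cells was -5.12 (SE 0.84, edgeR adjusted p = 5.8e-07). The part of hepatocyte transcripts inside the outlines of endothelial cells was not tested for this gene.

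The endothelial ligands showed no called difference along the lobule. Wnt2 in endothelial cells stood at 15.6, 17.4 and 17.4 in section 1 and at 0, 4 and 4 counts in section 2, and its log2 difference was 0.55 (SE 0.54, edgeR adjusted p = 0.82). Bmp2 stood at 24.0 (14.7 to 37.1), 45.3 and 45.2 (34.2 to 58.5) in section 1 and had 3, 8 and 3 counts in section 2, with a log2 difference of 0.87 (SE 0.50, edgeR adjusted p = 0.68). Vwf had 4, 2 and 4 counts in section 1 and 2, 2 and 2 in section 2, and was too sparse to test. Lyve1, a rule gene and so not tested, stood at 63.6, 58.1 and 63.4 in section 1 and at 27.9, 105 and 234 in section 2, from 3, 10 and 18 counts. Oit3 stood at 200.5, 214 and 207 in section 1 and at 158, 294 and 364 in section 2.

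**Figure D5:**
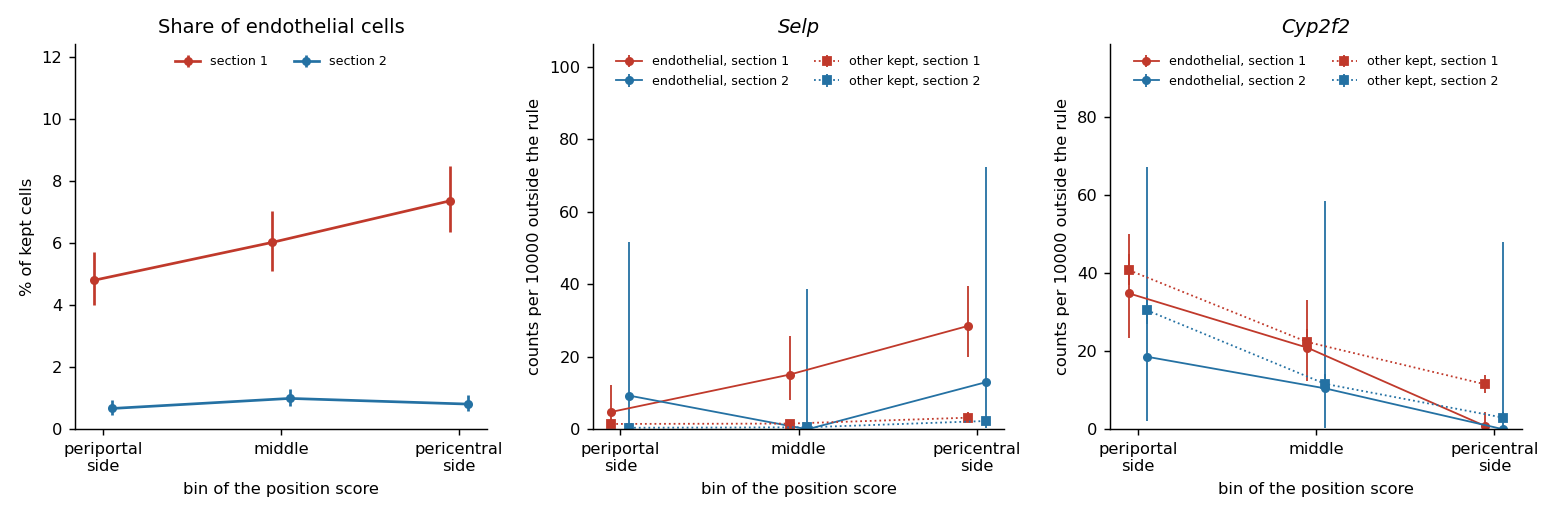
Share of endothelial cells among kept cells (left), and levels of Selp (middle) and Cyp2f2 (right) per 10000 counts outside the rule, in 3 equal bins of the position score; circles are endothelial cells and squares other kept cells, with exact binomial (left) or Poisson intervals. In section 1 the share runs from 4.80% to 7.36% and Selp from 4.80 to 28.5, and in section 2 the Selp bars cover the whole range.

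Endothelial cells made up a larger share of the neighbours of endothelial cells than of the neighbours of other kept cells. Within 30 µm, 10.7% of the kept neighbours of an endothelial cell were endothelial in section 1, against 5.65% around the others, and 2.81% against 0.810% in section 2. The log2 ratios were 0.91 and 1.79, or 1.35 ± 0.62 (SD, n = 2), and no test was run over 2 sections. The ratio shrank with distance, to 0.75 and 1.55 at 50 µm and 0.38 and 1.34 at 100 µm. An endothelial cell had 5.94 kept neighbours on average against 6.07 for others in section 1, and 7.55 against 7.40 in section 2, so the density of kept cells differed little. The section 2 share at 30 µm rests on 28 endothelial neighbours among 997. The part of local depth, or of cells split into several outlines, in these ratios was not tested. The median distance to the nearest endothelial cell was 40.5 µm against 59.8 in section 1 and 84.2 against 157 in section 2.

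The share of endothelial cells differed from square to square of the tissue. In squares of 500 µm with at least 50 kept cells, the share of endothelial cells ran from 0% to 12% in 53 squares of section 1, with a median of 5.56%, and from 0% to 5.79% in 63 squares of section 2, with a median of 0.595%. Of these squares, 21 held none in section 2. The part of small numbers of cells per square, or of local depth, in these shares was not tested. Among all 102 squares of section 2, whatever their number of kept cells, the 10 with the most endothelial cells held 74 of the 132 (56.1%). In section 1, 1 of the squares with at least 50 kept cells held none, and the 7 with the most endothelial cells among all 76 held 173 of 559 (30.9%). Squares were ranked here by number of endothelial cells, not by share, so squares with many kept cells can rank high. In the neighbours of endothelial cells, hepatocyte genes stood at 3239.9 against 3199 around other cells in section 1 and at 4568 against 4866 in section 2, and mesenchymal genes at 209 against 179.7 and at 153 against 122.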

How the data were processed

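The deposited tables hold raw counts of 500 genes and 50 blanks in each cell outline, and each transcript's position and cell. Volumes, centres and stain intensity values are those the authors deposited. The µm unit is assumed from cell sizes, and the labels and headers used here name no decoding or segmentation software. Counting the deposited transcripts by cell again gave the same counts for all 26037 and 85929 cells. Blanks were left out of totals, and the 7 rule genes out of library sizes and tests. Counts were summed per section and group and tested with edgeR 4.0.16 (R 4.3.3; DESeq2 1.42.0 as an alternative), section as a block, on genes with at least 50 counts, or 20 for position, where the 6 landmarks were left out. Tested on simulated data, the comparison with other cells (416 genes) recovered 93.3% of genes raised by 2 on the log2 scale, 28.6% of those lowered by 2, 13.3% and 53.3% of those raised or lowered by 1, and called 0% of unchanged ones, whose median error was -0.21. The position test (208 genes) recovered 60.0%, 58.3%, 0% and 0%. The simulated counts had a fixed small dispersion and the same change in both sections. Real sections can disagree more, so these rates do not give the error rate of the real calls. Members, gene lists and tests were chosen with earlier results of these data known. Named genes are the rule genes, the largest called changes in both sections and the members of the endothelial and angiocrine lists. Also named are called position genes with Wnt2, Bmp2 and Vwf, and the most counted genes of other cell types. Gimap4, Lrp5, Dll1, Sox9, Gp1bb and Pdgfra were added after values were seen. Alternatives were other scalings, filters, thresholds, radii and cell subsets. Python 3.11.15 was used for the rest.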

Additional observations from a re-analysis of the deposited data

Results flagged for a closer look

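Transcripts outside the kept cells are not used in the comparisons, and some were of the 7 rule genes. In section 1, 3009 rule-gene transcripts lay in no segmented cell and 835 in cells below the limits on counts or volume. In section 2 these were 1252 and 1835. Those in no cell are 31.8% and 23.8% of the rule-gene transcripts of each section, below the 40.1% and 34.4% of all genes. Those in cells below the limits are 8.83% and 34.9%, above the 5.35% and 24.2% of all genes. Transcripts of the rule genes were thus detected beyond the 691 selected cells in both sections. Of the 835 in section 1, 616 were of Ushbp1. The part of false detections among these transcripts, or of RNA from other cell types, was not tested.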

How the results depend on the processing

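The count of 18 genes higher in endothelial cells stayed within 1.5 times under TMMwsp factors, DESeq2, both other filters on counts, cells of at least 20 counts, a rule minimum of 2, transcripts near the centre and comparison cells with 0 rule counts. It was 44 without TMM factors, 33 with size factors, 38 without the cells selected on Ushbp1 alone (added after seeing the data, as was TMMwsp), 10 at 20 to 49 counts, 8 without the replicate block and 1 with a rule minimum of 5. Genes lower numbered 14, 33 and 27 in the first 3 of these against 0, then 1 without the replicate block, 1 with a minimum of 2 and 2 with at least 200 counts. No gene of the 18 reversed in a refit that tested it; 11 of them could be tested with at least 200 counts, 12 at 20 to 49 counts, and 17 with cells of at least 20 counts, transcripts near the centre or comparison cells with 0 rule counts. On position, genes higher numbered 0 with DESeq2, a minimum of 2, no filter or no replicate block, and 2 at 100 µm; genes lower numbered 0 with DESeq2 and 2 at 100 µm. The log2 position ratio of 0.45 was 0.85 with a minimum of 5, and 0.28 to 0.62 by section. The log2 neighbour ratio of 1.35 was 0.59 with a minimum of 2, and 0.91 to 1.79 by section; a minimum of 5 left no neighbouring pair in section 2 and gave no value. The median of other endothelial genes, 3.55, was 0.39 at 20 to 49 counts. There only Mrc1, Vcam1 and S1pr1 of the list could be tested. By section the median was 3.46 to 3.87, from ratios without TMM scaling. A single section leaves no residual degrees of freedom, so counts of calls have no value there. The 2901 counts outside the rule in endothelial cells of section 2, against 37574 in section 1, limit every value of that section.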
